A study of Mus musculus with 9 samples.

Results

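Genes of DNA replication and S phase, 48 in all, were followed in the stomach of newborn mice with and without the transcription factor C/EBPβ, the product of Cebpb and a member of the leucine zipper class. The list was drawn up by name and holds the origin recognition and licensing factors, the MCM helicase and its activators, the DNA polymerases, the sliding clamp and its loader, the enzymes of nucleotide supply, the chaperones that rebuild chromatin, and the regulators that open S phase. All 48 had at least 1 probe on the array, and 46 of them were among the 21730 genes tested. Orc1, the large subunit of the origin recognition complex, was well above background on 1 knockout and 2 wild-type arrays, and Ccne2, which encodes cyclin E2, on none, so neither was tested.

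Stomachs were taken from 5 mice whose genotype label is C/EBPbeta KO (KO 1 to KO 5) and from 4 labelled WT (WT 1 to WT 4), and each mouse had its own Agilent 1-colour array. The treatment protocol and the series design place the mice at birth, whereas the source field calls them old. Complementary DNA was primed with oligo dT and carried the dye Cy3. The labels give neither the strain nor which part of Cebpb was removed, they name no other allele or agent, and nothing in them says whether the mice shared litters. RNA came from the stomach as a bulk tissue, so in every result that follows fewer cells of a type and less RNA per cell cannot be told apart.

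A cell enters S phase when cyclin E with its kinase frees E2F factors from the retinoblastoma protein, and the E2F factors then switch on many of the genes listed here. In the phase before, the origin recognition complex, Cdc6 and Cdt1 load the MCM helicase onto DNA. Cdc45 and the GINS complex turn the helicase on, the polymerases copy both strands behind the clamp Pcna, and chromatin assembly factor 1 places histones on the new DNA. In the newborn stomach, dividing cells lie in the glandular epithelium, in the basal layer of the forestomach and in the mesenchyme.

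Levels are log2 of the processed signal minus the 75th percentile of the same array, so 0 marks that percentile and 1 unit is a 2-fold step. A probe's level depends on its sequence, and levels are compared only between arrays, never between genes. Differences are knockout minus wild type with limma's standard error (SE), and a gene was called where limma's two-sided p, adjusted by Benjamini-Hochberg over all genes tested, was below 0.05. The targeted gene lay at −2.74, −2.87, −1.58, −2.04 and −1.68 on KO 1 to KO 5 and at 3.71, 3.21, 3.28 and 3.00 on WT 1 to WT 4, and Cebpb thus fell by 5.48 ± 0.30, to 2.24% of wild type (limma adjusted p = 0.000123). Of 15 stomach identity genes, 14 were well above background on all 9 arrays. That percentile was between 221 (WT 4) and 472 (KO 3) in signal units, between 50.9% and 57.2% of spots were well above background, and 0 were saturated. Y-linked signal was missing on KO 2, KO 4 and KO 5 (mean level −7.06 to −5.16) and present on the other 6 arrays (−0.39 to 0.04). In the genes described here WT 4 differed from the rest of its group, as did KO 5 from its own, and results are given with and without them.

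Most of the replication genes read somewhat lower in the knockout stomach, but by small steps, and none of them changed by the test. Of the 46 tested, 40 (87%) were lower in the knockout mean, against 49.1% of all genes tested. Their median difference was −0.27, against 0.005 over all genes, and the range ran from −0.82 for the uracil glycosylase gene Ung to 0.23 for Gins3. The median over the 46 genes on each array had a pooled within-group SD of 0.25. These genes were read on the same mice and are not independent, so counts of them are descriptions only. No member passed the adjusted threshold (lowest limma adjusted p = 0.386), which 0.202% of all genes did, namely 44 genes. At an unadjusted p below 0.05, 4 members were lower and 0 higher, against 3.67% of all genes that were lower at that level. For no member did all knockout arrays lie below all wild-type arrays, which held for 1.08% of all genes, and for none did they lie above, which held for 2.31%.

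The steps were small throughout. Only Ung, E2f1, Cdc45 and Chaf1a were more than 1.5-fold lower, while 21 of the 46 lay within 0.25 log2 units of wild type in either direction. The 6 genes with a higher knockout mean were Gins3, Prim2, Gins4, Rpa3, Pcna and Orc6. For 13 members more than 1 probe passed the filter on dim probes, and in 12 of these the probes had the same sign, the exception being Prim2.

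**Figure D1:**
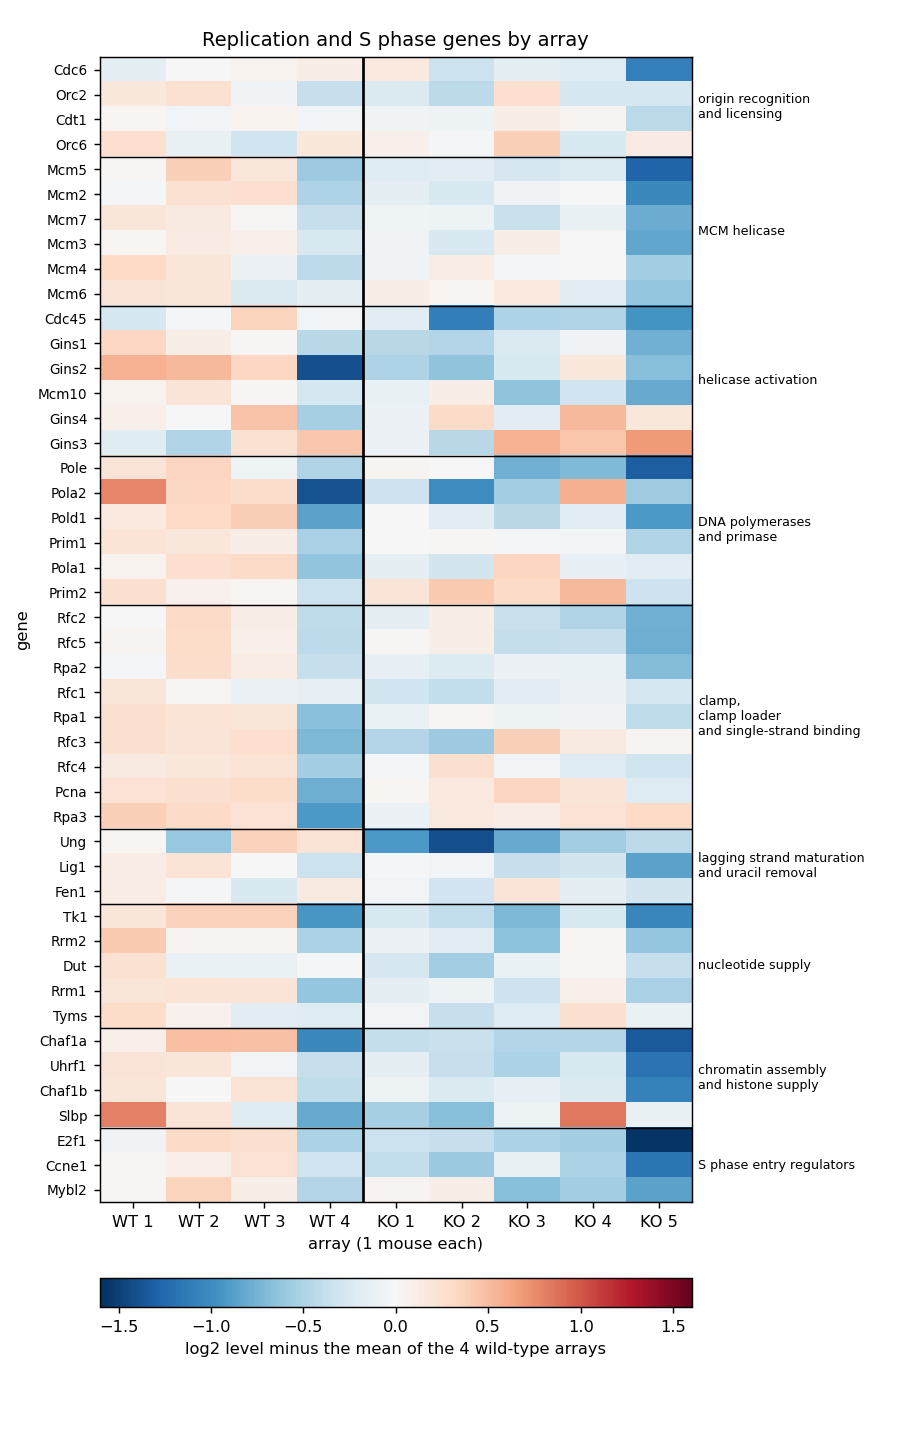
Each cell is the log2 level of 1 gene (rows, grouped by role) on 1 array (columns) minus the mean of the 4 wild-type arrays for that gene, blue for lower and red for higher. KO 5 forms a mostly blue column, and WT 4 is bluer than the other 3 wild-type arrays.

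The lower values were not spread evenly over the mice. Averaged over the 46 genes and set against the wild-type mean, KO 1 to KO 5 lay at −0.15, −0.24, −0.17, −0.09 and −0.60, while WT 1 to WT 4 lay at 0.17, 0.15, 0.12 and −0.44. Thus 3 wild-type mice lay above every knockout mouse, while WT 4 lay below 4 of the 5 knockout mice. KO 5 was the lowest of all 9 arrays for 23 members (50%), against 8.67% of all genes, and WT 4 for 13 members (28.3%), against 22.4%. Among the knockout arrays alone KO 5 was the lowest for 30 members (65.2%, against 15.7% of all genes), and among the wild-type arrays alone WT 4 was the lowest for 38 (82.6%, against 35.6%).

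Without WT 4, which was singled out by its low values in these same genes, the members separated further. Leaving that array out raises their wild-type mean, so the wider gap follows in part from the choice. The shares of all genes given beside the counts do not correct for this. Then 43 of 46 were lower, with a median of −0.40, and 17 were lower at an unadjusted p below 0.05, against 8.21% of all genes. In 18 members all knockout arrays then lay below the 3 remaining wild-type arrays, against 6.42% of all genes: Mcm5, Mcm7, Gins1, Gins2, Prim1, Pold1, Rfc1, Rpa1, Rpa2, Lig1, Rrm1, Rrm2, Tk1, Chaf1a, Chaf1b, Uhrf1, E2f1 and Ccne1. Still no member passed the adjusted threshold (lowest limma adjusted p = 0.109, for Tk1). Without KO 5 instead, 38 were lower with a median of −0.16, and without both arrays 43 were lower with a median of −0.29. When limma gave each array a weight by its fit, 2.52% of all genes were called and 1 member with them, the thymidine kinase gene Tk1 (−0.92; limma adjusted p = 0.0448), and the members' median was −0.44.

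Both low arrays were on slide 1, which also held KO 4 and WT 3. Within that slide 33 of the 46 genes were lower in knockout with a median of −0.20, against 53.3% and −0.04 over all genes. Within slide 4, which held KO 2, WT 1 and WT 2, 43 were lower with a median of −0.34, against 44.5% and 0.06 over all genes. There KO 2 alone stands for the knockout, and neither low array is included. KO 1 and KO 3 were alone on their slides. Squamous differentiation genes of the forestomach, all 18 of them well above background on all 9 arrays, were on average low on the same arrays. Not every gene was low, and on KO 5 Krt4 and Krt13 lay within the range of the other knockout arrays. The median over these genes relative to wild type was −0.99 on KO 5 and −1.64 on WT 4. Their mean relative to wild type was −1.61 on KO 5 against −0.40 to 0.07 on the other knockout arrays, and −1.65 on WT 4 against 0.38 to 0.65 on the other wild-type arrays. The 10 fibroblast genes, also all detected, lay at −0.82 on WT 4 and between 0.06 and 0.43 on the other wild-type arrays, and at 0.29 to 0.94 in knockout. The 10 pit cell genes lay at 0.70 to 1.41 in knockout, at 0.76 on WT 4 and at −0.32 to −0.18 on the other wild-type arrays. Of the 10 smooth muscle genes, well above background on all 9 arrays, 9 were lower in knockout with a median of −0.40. Their mean lay at −0.37, −0.82, −0.40, −0.01 and −0.48 in KO 1 to KO 5, against 0.10, 0.13, 0.23 and −0.47 in WT 1 to WT 4, so WT 4 was low here too. What part these other cell types have in the replication values was not tested. With the level of Y-linked genes in the fit, 35 members were lower with a median of −0.16, against 45% and 0.036 over all genes. Every array without Y-linked signal was a knockout array, so this fit parts that signal from genotype only in part.

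**Figure D2:**
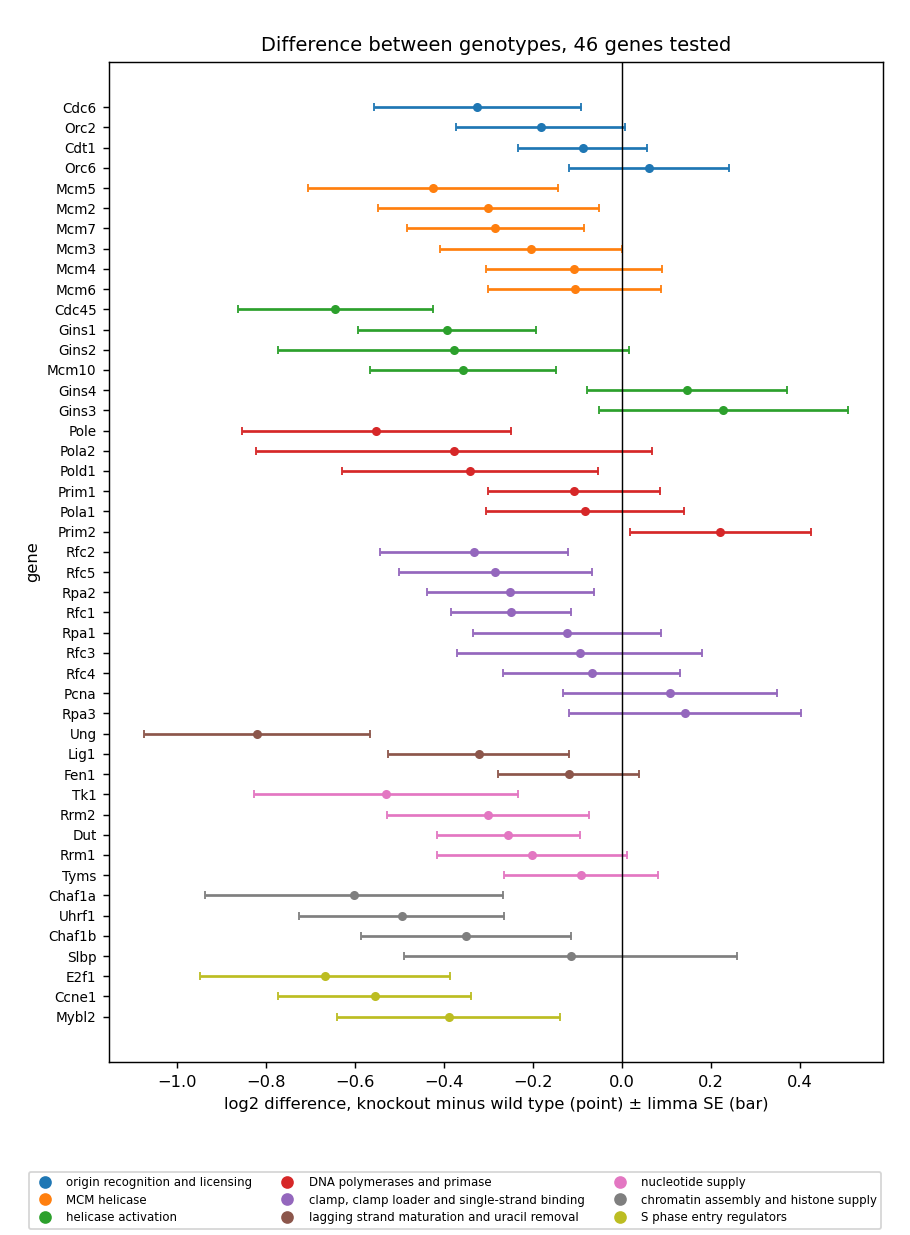
Points give the difference between genotypes in log2 units for each of the 46 genes tested, coloured by role, and bars 1 SE from limma on either side. Points left of 0 are lower in knockout, as for 40 genes, and no gene passed the adjusted threshold.

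E2F factors bind short GC-rich elements near the starts of many replication genes, so the promoters were searched for 4 such 8-base motifs, TTTGGCGC, TTTCGCGC, TTTCCCGC and TTTGCCGC, on both strands, with overlaps counted. The RefSeq promoter table (GRCm38.p6) holds, for 40 of the 48 genes, the window from 250 bases before to 50 bases after the start. Ccne2, Gins1, Gins2, Gins4, Mcm4, Pole, Prim2 and Rfc2 have no entry in it. A motif was found for 13 of the 40 (32.5%), namely Cdc6, Cdt1, Gins3, Lig1, Mcm3, Mcm5, Mcm6, Mcm7, Orc1, Pola1, Pold1, Rfc3 and Uhrf1, against 704 of all 27025 genes in the table (2.6%). Of the 12 tested members with a motif 11 were lower in knockout, with a median of −0.24, and of the 27 with a window but no motif 24 were lower, with a median of −0.26. The 2 medians lay close together, and their difference was not tested. A window without these exact motifs does not show that no E2F factor acts on the gene.

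The 4 windows below belong to the genes with a motif and the smallest p among those described in full, and they show where the motif, in capitals, sits. The stretch of Uhrf1 is chr17:56304063-56304312 on the plus strand of GRCm38.p6 and covers the 250 bases before the start. That of Mcm5 is chr8:75109259-75109508 on the plus strand, that of Mcm7 is chr5:138171884-138172133 on the minus strand, and both also end at the base before the start. For Lig1, whose motif lies after the start, 30 bases are shown, chr7:13278841-13278870 on the plus strand.
Uhrf1: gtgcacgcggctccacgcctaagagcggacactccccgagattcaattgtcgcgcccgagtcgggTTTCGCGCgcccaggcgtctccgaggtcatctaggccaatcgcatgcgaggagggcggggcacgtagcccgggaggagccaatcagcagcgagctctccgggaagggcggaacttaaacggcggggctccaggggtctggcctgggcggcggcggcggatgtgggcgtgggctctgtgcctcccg
Mcm5: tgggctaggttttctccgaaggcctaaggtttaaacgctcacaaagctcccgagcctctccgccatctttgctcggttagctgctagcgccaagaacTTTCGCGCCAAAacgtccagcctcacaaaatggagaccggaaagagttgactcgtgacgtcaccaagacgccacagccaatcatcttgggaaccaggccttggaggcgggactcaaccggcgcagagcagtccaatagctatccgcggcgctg
Mcm7: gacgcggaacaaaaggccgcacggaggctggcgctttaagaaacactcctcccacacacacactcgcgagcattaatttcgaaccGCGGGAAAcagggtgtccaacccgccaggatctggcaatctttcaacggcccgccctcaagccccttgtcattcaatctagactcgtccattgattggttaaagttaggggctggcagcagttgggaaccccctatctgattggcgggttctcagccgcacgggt
Lig1: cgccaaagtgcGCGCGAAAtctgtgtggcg
In Mcm5 the capitals hold 2 overlapping motifs, TTTCGCGC and, on the other strand, TTTGGCGC. The Mcm7 window has a further motif at position 17 after its start that is not shown. A match of letters does not show that a factor binds there.

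Among the regulators that open S phase, E2f1 and Ccne1 were lower at an unadjusted p below 0.05 and no regulator passed over all genes. E2f1, the E2F factor best known for driving replication genes, was read on chromosome 2 (154385798 to 154385857, mm9, as are all probe positions here). It lay at 0.95, 0.92, 0.78, 0.74 and −0.29 on KO 1 to KO 5 and at 1.23, 1.59, 1.54 and 0.78 on WT 1 to WT 4. KO 5 was far below the other knockout arrays, and WT 4 reached down among them, so the groups overlapped. The difference in E2f1 was −0.67 ± 0.28 (1.59-fold lower; limma adjusted p = 0.539). Ccne1, which encodes cyclin E1, the partner of the kinase that starts S phase, was read on chromosome 7 (38882937 to 38882960). Its level was 1.84, 1.64, 2.11, 1.73 and 1.07 in knockout and 2.25, 2.31, 2.46 and 1.91 in wild type, in the same order of mice. Only KO 3 and WT 4 crossed over. The difference in Ccne1 was −0.56 ± 0.22 (limma adjusted p = 0.507), and a second probe of it gave −0.74.

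Mybl2, a MYB factor of the complex that activates late cell cycle genes, lay at 2.19, 2.26, 1.48, 1.61 and 1.29 in knockout and at 2.17, 2.51, 2.24 and 1.69 in wild type. KO 3, KO 4 and KO 5 were below all wild-type arrays, and KO 1 and KO 2 among them. Mybl2 had a difference of −0.39 ± 0.25 (limma adjusted p = 0.746), but its second probe gave −0.02, so its probes differed in size. Over the 3 regulators tested, the array means relative to wild type were −0.23, −0.29, −0.44, −0.53 and −1.20 in knockout and −0.01, 0.24, 0.19 and −0.43 in wild type. Here KO 4, which was close to wild type for the list as a whole, was the second lowest knockout array.

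**Figure D3:**
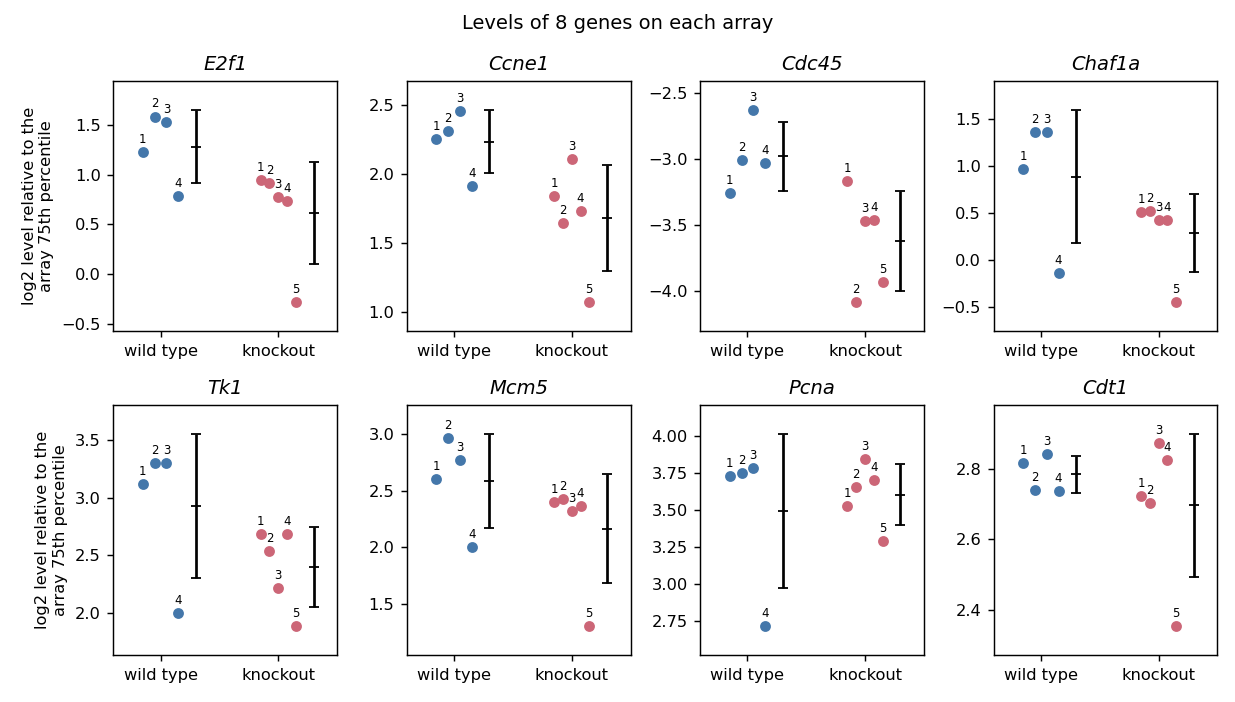
Each panel shows 1 gene, with the log2 level relative to the array's 75th percentile on its own vertical axis, a point per array with the mouse number above it, and the mean ± SD of each group in black. In E2f1, Ccne1, Chaf1a, Tk1 and Mcm5 WT 4 lies among the knockout arrays, in Pcna it lies below all arrays, and in Cdt1 KO 5 alone lies low.

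Of the 4 origin recognition and licensing genes tested, 3 were lower in the knockout mean, with a median of −0.14, and none passed the test. Cdc6, the loader that brings the helicase to origins, lay at −1.71, −2.21, −2.02, −2.07 and −2.96 on KO 1 to KO 5 and at −2.02, −1.88, −1.81 and −1.76 on WT 1 to WT 4. KO 1 was the highest array of all and KO 5 by far the lowest, while the wild-type arrays, WT 4 included, lay close together. Cdc6 differed by −0.32 ± 0.23 (limma adjusted p = 0.780), and its second probe gave −0.67. With the level of Y-linked genes in the fit the sign of Cdc6 turned (0.04).

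Cdt1, the partner of Cdc6 in helicase loading, lay at 2.72, 2.70, 2.87, 2.83 and 2.35 in knockout and at 2.82, 2.74, 2.84 and 2.74 in wild type. KO 5 was low, and the other knockout arrays lay on either side of wild type. Its difference was −0.09 ± 0.14 (limma adjusted p = 0.937; 0.03 with Y-linked genes in the fit). Orc2, a core subunit of the origin recognition complex, lay at −2.09, −2.27, −1.58, −2.13 and −2.12 in knockout and at −1.68, −1.61, −1.91 and −2.22 in wild type. KO 3 was the highest of all arrays and WT 4 was among the low ones, and the difference was −0.18 ± 0.19 (limma adjusted p = 0.868). Orc6, the smallest subunit, lay at 2.12, 2.01, 2.43, 1.80 and 2.17 in knockout and at 2.31, 1.93, 1.73 and 2.21 in wild type. The groups of Orc6 were mixed throughout, and the difference of 0.06 ± 0.18 (limma adjusted p = 0.972) turned to −0.03 with slide as a block.

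All 6 subunits of the MCM helicase ring, which unwinds the parental strands, were lower in the knockout mean, with a median of −0.24 and a range from −0.42 to −0.11. Their mean relative to wild type was −0.07, −0.10, −0.07, −0.09 and −0.85 in KO 1 to KO 5, against 0.13, 0.21, 0.04 and −0.38 in WT 1 to WT 4. Against this wild-type mean, which includes the low WT 4, KO 5 thus held most of the difference in this ring. The 4 other knockout arrays lay close to each other, between WT 4 and the other wild-type arrays. Mcm5 lay at 2.40, 2.42, 2.32, 2.37 and 1.31 in knockout and at 2.61, 2.97, 2.77 and 2.00 in wild type. Every knockout array was below WT 1 to WT 3, and only KO 5 was below WT 4. The difference in Mcm5 was −0.42 ± 0.28 (limma adjusted p = 0.755).

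Mcm7, whose gene was read on chromosome 5 (138605925 to 138605984), lay at 3.43, 3.42, 3.15, 3.38 and 2.70 in knockout and at 3.70, 3.65, 3.52 and 3.13 in wild type. As for Mcm5, every knockout array was below WT 1 to WT 3, and WT 4 was below all knockout arrays but KO 5. Mcm7 differed by −0.28 ± 0.20 (limma adjusted p = 0.771). Mcm2, often used as a marker of cells licensed to divide, lay at 0.83, 0.74, 0.93, 0.98 and −0.04 in knockout and at 0.97, 1.23, 1.26 and 0.49 in wild type. KO 4 lay just above WT 1, KO 5 far below the rest, and the difference was −0.30 ± 0.25 (limma adjusted p = 0.819). For Mcm3, Mcm4 and Mcm6 the differences were −0.20, −0.11 and −0.11, and KO 5 was the lowest array for each of the 6 subunits.

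The genes that switch the helicase on went in both directions. Of the 6 tested, 4 were lower and 2 higher, with a median of −0.37. Cdc45, which joins the MCM ring in the active helicase, was read on chromosome 16 (18807449 to 18807508) and was well above background on 4 knockout and all 4 wild-type arrays. It lay at −3.16, −4.08, −3.46, −3.46 and −3.93 in knockout and at −3.25, −3.00, −2.62 and −3.03 in wild type. All knockout arrays but KO 1 were below all wild-type arrays, and WT 4 lay within its group here. The difference in Cdc45 was −0.64 ± 0.22 (1.56-fold lower; limma adjusted p = 0.433), the smallest adjusted p after that of Ung. With another background correction (normexp) the difference in Cdc45 was −0.38 (limma adjusted p = 0.595), so its size depended on how background was handled.

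Within the GINS complex the subunits differed in sign. Gins1 lay at 0.17, 0.14, 0.39, 0.56 and −0.15 in knockout and at 0.94, 0.70, 0.64 and 0.17 in wild type. WT 4 was among the knockout arrays and the other wild-type arrays were above all of them. Gins1 had a difference of −0.39 ± 0.20 (limma adjusted p = 0.635) and Gins2 one of −0.38 ± 0.39 (limma adjusted p = 0.871), with WT 4 at −1.63 far below the other 8 arrays of Gins2, which lay between −0.90 and 0.33. Gins3 and Gins4 lay higher in knockout, at 0.23 ± 0.28 and 0.15 ± 0.23, neither beyond its spread between mice. Gins3 was highest on KO 5, the lowest array for 23 of the 46 members. Mcm10, which helps Cdc45 to bind, lay at 0.85, 1.07, 0.32, 0.65 and 0.17 in knockout and at 1.02, 1.17, 0.99 and 0.69 in wild type. KO 3, KO 4 and KO 5 were below all wild-type arrays, and the difference was −0.36 ± 0.21 (limma adjusted p = 0.706).

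Of the 6 polymerase and primase genes 5 were lower, with a median of −0.22. Pole, the catalytic subunit of the leading strand polymerase, lay at 1.70, 1.66, 0.89, 0.95 and 0.34 in knockout and at 1.86, 2.01, 1.59 and 1.18 in wild type. KO 3, KO 4 and KO 5 were below all wild-type arrays, and KO 1 and KO 2 within them. Pole differed by −0.55 ± 0.30 (limma adjusted p = 0.671), and its second passing probe gave −0.58. Pold1, the catalytic subunit of the lagging strand polymerase, lay at 1.90, 1.73, 1.46, 1.74 and 0.99 in knockout and at 2.06, 2.22, 2.30 and 1.05 in wild type. WT 4 sat beside KO 5 at the bottom, every other knockout array lay between them and WT 1 to WT 3, and the difference was −0.34 ± 0.29 (limma adjusted p = 0.821).

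Prim2, the large primase subunit, lay at 0.79, 1.00, 0.89, 1.10 and 0.25 in knockout and at 0.84, 0.65, 0.61 and 0.24 in wild type. KO 2, KO 3 and KO 4 were above all wild-type arrays, and KO 5 and WT 4 were alike at the bottom. Prim2 had a difference of 0.22 ± 0.20 (limma adjusted p = 0.840), whereas its other probe gave −0.21, so its direction is uncertain. The small primase subunit gene Prim1 lay at −0.11 ± 0.19, and the polymerase alpha genes Pola1 and Pola2 at −0.08 ± 0.22 and −0.38 ± 0.45. For Pola2, which was well above background on 4 knockout and 3 wild-type arrays, WT 4 was again the lowest array, at −4.59.

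Genes of the sliding clamp, its loader and the single-strand binding protein were lower in 7 of 9, with a median of −0.12, the smallest of the 9 roles. Pcna, the clamp that tethers polymerases to DNA and a common marker of proliferation, lay at 3.53, 3.66, 3.85, 3.70 and 3.30 in knockout and at 3.73, 3.75, 3.79 and 2.72 in wild type. WT 4 was far below all other arrays, and the other wild-type arrays were above all knockout arrays but KO 3. Pcna had a difference of 0.11 ± 0.24 (limma adjusted p = 0.955), which turned to −0.15 without WT 4. Rfc1, the large subunit of the clamp loader, lay at 2.37, 2.29, 2.50, 2.59 and 2.42 in knockout and at 2.88, 2.70, 2.60 and 2.56 in wild type. Only KO 4 crossed WT 4, and KO 5 was not low here. Rfc1 differed by −0.25 ± 0.13 (limma adjusted p = 0.662).

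Rfc2, a small subunit of the loader, lay at 1.84, 2.10, 1.63, 1.51 and 1.23 in knockout and at 1.99, 2.30, 2.09 and 1.59 in wild type. KO 4 and KO 5 were below all wild-type arrays, and the difference was −0.33 ± 0.21 (limma adjusted p = 0.742). Rpa2, the middle subunit of the protein that covers single strands, lay at −0.40, −0.50, −0.37, −0.39 and −0.97 in knockout and at −0.30, 0.0040, −0.16 and −0.64 in wild type. All knockout arrays were below WT 1 to WT 3, and WT 4 was below all of them but KO 5. Rpa2 differed by −0.25 ± 0.19 (limma adjusted p = 0.793). The loader genes Rfc3, Rfc4 and Rfc5 lay at −0.09, −0.07 and −0.28, and Rpa1 and Rpa3, the other subunits of that protein, at −0.12 and 0.14. Rpa3 was low on WT 4 alone, at 1.02 against 1.84 to 2.31 on the other arrays.

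Lagging strand maturation and uracil removal are represented by 3 genes, all lower in the knockout mean. Lig1, the ligase that seals Okazaki fragments, lay at 3.65, 3.63, 3.31, 3.38 and 2.82 in knockout and at 3.79, 3.90, 3.69 and 3.34 in wild type. Every knockout array was below WT 1 to WT 3, and the difference was −0.32 ± 0.20 (limma adjusted p = 0.742). Fen1, the nuclease that trims those fragments, lay at 2.81, 2.55, 3.06, 2.70 and 2.56 in knockout and at 2.98, 2.83, 2.61 and 3.00 in wild type. The groups of Fen1 were mixed, and the difference of −0.12 ± 0.16 (limma adjusted p = 0.912) turned to 0.07 with Y-linked genes in the fit.

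Ung, the glycosylase that removes uracil from new DNA, had the lowest value of the list, and its probe calls for care. It lay at 4.07, 3.58, 4.18, 4.42 and 4.57 on KO 1 to KO 5 and at 5.01, 4.37, 5.36 and 5.20 on WT 1 to WT 4. WT 2 was below KO 4 and KO 5, and neither KO 5 nor WT 4 was the low array of its group, unlike in most other members. The difference in Ung was −0.82 ± 0.25 (1.77-fold lower; limma adjusted p = 0.386). Of the 60 bases of this probe, on the plus strand at chr5:114588731-114588790 (mm9, from the array design), 34 form a run of alternating T and G, and it is the only member whose probe has such a run of 20 bases or more.

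A further 24 probes that passed the filter hold at least 30 bases of this repeat, and all 24 read lower in knockout, with a median of −0.72 and a range from −0.89 to −0.61. One of them is the probe of Hemgn, a gene of red cell precursors, at chr4:46407248-46407307 on the minus strand (mm9), with a run of 36. The first 30 bases of both probes are shown because outside the repeat, whose first bases are in capitals, they differ.
Ung: tatcctttagagttagagatttcaaaGTGT
Hemgn: taaggctctaacacatagacaataGTGTGT
Relative to its wild-type mean, Ung lay at −0.91, −1.40, −0.81, −0.56 and −0.42 in knockout and at 0.03, −0.61, 0.37 and 0.21 in wild type. The median of the 24 other probes lay at −0.85, −1.30, −0.70, −0.55 and −0.36 in knockout and at −0.01, −0.56, 0.36 and 0.20 in wild type. The Ung probe and the repeat probes thus followed the same order over all 9 arrays. Whether the repeat sets the reading of the Ung probe was not tested. Without Ung, 39 of 45 members were lower with a median of −0.26, 3 of them at an unadjusted p below 0.05, and the lowest limma adjusted p was 0.433, for Cdc45.

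**Figure D4:**
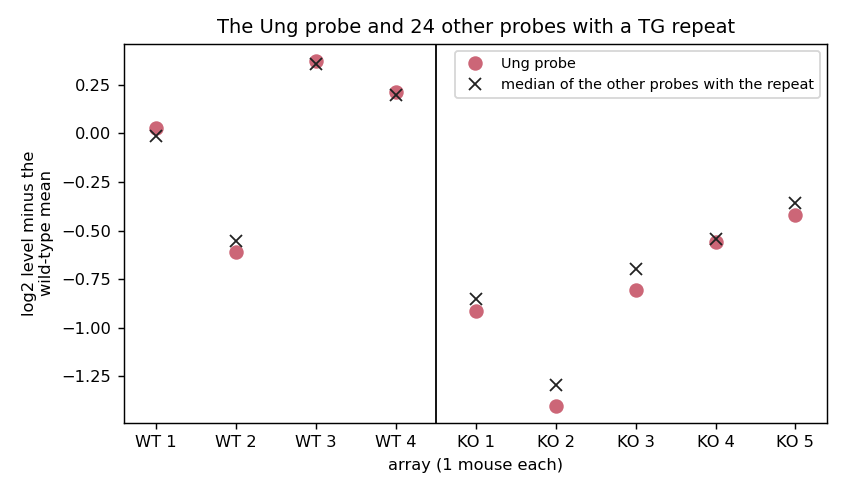
Circles give the log2 level of the Ung probe on each array minus its wild-type mean, and crosses the median over 24 other probes with at least 30 bases of the TG repeat. The 2 series lie almost on each other, with KO 2 lowest at −1.40 and −1.30 and WT 3 highest at 0.37 and 0.36.

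All 5 genes of nucleotide supply were lower in the knockout mean, with a median of −0.26. Tk1, the thymidine salvage kinase whose RNA climbs in S phase, lay at 2.68, 2.53, 2.21, 2.69 and 1.88 on KO 1 to KO 5 and at 3.12, 3.30, 3.30 and 2.00 on WT 1 to WT 4. All knockout arrays were below WT 1 to WT 3, and WT 4 was below all of them but KO 5. Tk1 differed by −0.53 ± 0.30 (limma adjusted p = 0.687), and its second passing probe gave −0.41. Rrm2, the subunit that limits ribonucleotide reductase in S phase, lay at 3.13, 3.05, 2.56, 3.25 and 2.60 in knockout and at 3.64, 3.26, 3.26 and 2.70 in wild type. KO 4 nearly reached WT 2, KO 3 and KO 5 were the low arrays, and the difference was −0.30 ± 0.23 (limma adjusted p = 0.795).

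Dut, which keeps uracil out of DNA by breaking down dUTP, lay at 0.52, 0.23, 0.67, 0.80 and 0.41 in knockout and at 1.02, 0.67, 0.68 and 0.76 in wild type. KO 2 was the lowest array and KO 4 was above 3 of the 4 wild-type arrays. Dut differed by −0.26 ± 0.16 (limma adjusted p = 0.740). The large ribonucleotide reductase subunit gene Rrm1 lay at −0.20 ± 0.21 and the thymidylate synthase gene Tyms at −0.09 ± 0.17.

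Chromatin assembly genes had, with the regulators, the lowest medians of the 9 roles, at −0.42 for the 4 genes of this group and −0.56 for the 3 regulators. Chaf1a, the large subunit of chromatin assembly factor 1, was read on chromosome 17 (56206969 to 56207028) and lay at 0.51, 0.52, 0.42, 0.42 and −0.45 in knockout and at 0.96, 1.36, 1.36 and −0.14 in wild type. KO 1 to KO 4 were close together, below WT 1 to WT 3 and above WT 4. Chaf1a differed by −0.60 ± 0.34 (1.52-fold lower; limma adjusted p = 0.682). Its partner Chaf1b lay at 2.88, 2.72, 2.83, 2.73 and 1.88 in knockout and at 3.15, 2.95, 3.18 and 2.55 in wild type. The pattern of Chaf1b matched that of Chaf1a in KO 5, WT 4 and the narrow band of the others, and the difference was −0.35 ± 0.24 (limma adjusted p = 0.763).

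Uhrf1, which guides maintenance methylation to newly copied DNA, was read on chromosome 17 (56462770 to 56462829) and lay at 2.95, 2.74, 2.60, 2.86 and 1.92 in knockout and at 3.32, 3.30, 3.07 and 2.74 in wild type. All knockout arrays were below WT 1 to WT 3, and WT 4 lay beside KO 2. Uhrf1 differed by −0.49 ± 0.23 (1.41-fold lower; limma adjusted p = 0.591), and its second probe gave −0.69. Slbp, which binds the stem loop of replication-dependent histone mRNAs, lay at −1.14, −1.30, −0.70, 0.22 and −0.74 in knockout and at 0.19, −0.41, −0.82 and −1.43 in wild type. KO 4 was the highest of all arrays and WT 4 the lowest. The difference in Slbp was −0.12 ± 0.37 (limma adjusted p = 0.975), and it turned to 0.04 with slide as a block.

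Further genes of replication and of the cell cycle were read from lists beside the 48. Of 46 other replication and S phase genes tested, 35 were lower in knockout, with a median of −0.22, and none passed the test. The smallest p values there belonged to the fork protection gene Timeless (−0.66 ± 0.23; limma adjusted p = 0.447) and the checkpoint adaptor gene Clspn (−0.64 ± 0.31; limma adjusted p = 0.605). Of 30 genes of G2 and mitosis 26 were lower with a median of −0.25, again with none past the test, and their smallest p values were those of Hmmr (−0.46 ± 0.23; limma adjusted p = 0.623) and Ccnf (−0.69 ± 0.38; limma adjusted p = 0.673). Of 21 cyclin dependent kinase inhibitors, pocket proteins and related genes, 11 were lower with a median of −0.01, and none passed. The smallest p values there belonged to the inhibitor genes Cdkn1b (0.29 ± 0.15; limma adjusted p = 0.641) and Cdkn2b (0.59 ± 0.39; limma adjusted p = 0.754). For Cdkn2b WT 4, at 2.52, lay among the knockout arrays. The other inhibitor genes Cdkn1a, Cdkn1c, Cdkn2a, Cdkn2c and Cdkn2d lay between −0.07 and 0.17.

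The mitosis genes resembled the replication genes in median but not in the mice that carried it. Their mean relative to wild type was −0.06, −0.15, −1.03, 0.16 and −0.10 in KO 1 to KO 5, against 0.44, 0.38, 0.41 and −1.23 in WT 1 to WT 4. KO 3, not KO 5, was thus the low knockout array. Among the knockout arrays KO 3 was the lowest for 28 of the 30 mitosis genes and KO 5 for 0, whereas KO 3 was the lowest for 2 of the 46 replication genes and KO 5 for 30. The proliferation marker Mki67 followed the mitosis genes, at 4.17, 4.07, 3.29, 4.17 and 3.92 in knockout and 4.50, 4.37, 4.47 and 3.18 in wild type, with a difference of −0.21 ± 0.30 (limma adjusted p = 0.925). The other replication genes sided with the 48, at −0.04, −0.18, −0.26, −0.04 and −0.45 in knockout and 0.24, 0.09, −0.04 and −0.29 in wild type. WT 4 was low in all of these lists. The difference between the lists was not tested.

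**Figure D5:**
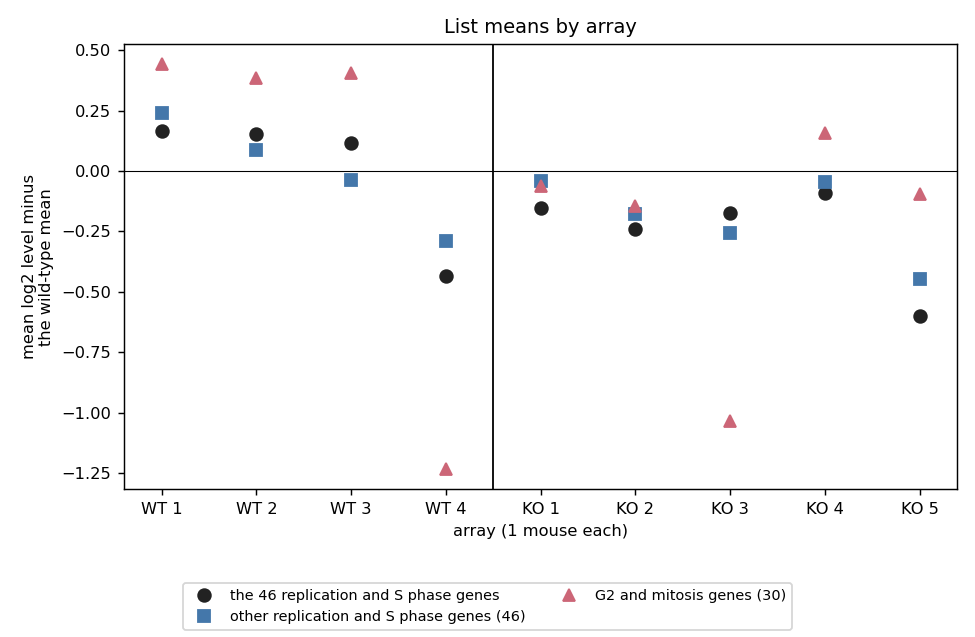
The vertical axis gives the mean log2 level of a list on each array minus its wild-type mean, for the 46 replication and S phase genes tested (circles), 46 other genes of replication and S phase (squares) and 30 genes of G2 and mitosis (triangles). WT 4 is low in all 3 lists, KO 5 in both replication lists and KO 3 in the mitosis genes.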

How the data were processed

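The deposited scanner files hold spot intensity on a linear scale. Per the file headers, Feature Extraction 10.5.1.1 subtracted the background from the processed signal intensity with a spatial detrend, replaced dim spots by surrogate values and did no normalization between arrays, while the submitters' processing notes name Feature Extraction 9.1. Its deposited yes or no flags, of another kind, were used as given. The series matrix that the authors deposited is on a log2 scale. Once a constant shift per array was removed, its differences between arrays matched those of the logged processed signal to within 3.61e-06 over 24294 probes. The shifts spanned 1.06 log2 units. The match settles scale and direction, while the centring of the matrix is unknown (column medians 0.0436, 0.217, −0.124, 0.0347 and −0.137 in the order KO 1 to KO 5, then −0.279, −0.161, 0.224 and 0.382 for wild type).

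From these files, spots of a probe were averaged without controls and outlier spots, log2 was taken, and each array's 75th percentile was subtracted. Probes were kept where at least 4 of 9 arrays read them well above background, and the probe with the highest mean stood for its gene. Genotypes were compared with limma 3.58.1 in R 4.3.3 without covariates, and the steps were tested on simulated data. The number of arrays limits the precision. The members, lists, design and alternatives were chosen with earlier results of these data known. Described in full are, in each role, the 3 tested genes with the smallest p (all where a role has 4 or fewer) plus Mcm2, Pcna, Cdc6, E2f1 and Mki67, and of each other cell cycle list the 2 with the smallest p. Each array's deviations from the mean of its genotype were correlated over genes between knockout and wild-type arrays. Correlations of same-numbered arrays (−0.305, 0.122, 0.153 and −0.482) gave no sign that replicate numbers pair the mice. Those of differently numbered arrays ran from −0.214 to 0.383, and so few arrays cannot exclude a pairing.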

Additional observations from a re-analysis of the deposited data

Results flagged for a closer look

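Single arrays stood off from their group by Dixon's ratio of gap to range in 17 of 84 values tested. For an independent value chance gives about 1 in 20. These values are not independent, since the genes were read on the same mice and the list means hold some of those genes. The count therefore cannot be set against that rate. Most concern KO 5 and WT 4. KO 5 was the low array for Mcm5 (1.31, others 2.32 to 2.42), Mcm2 (−0.042, others 0.74 to 0.98), Rpa2 (−0.97, others −0.50 to −0.37), Chaf1a (−0.45, others 0.42 to 0.52), Chaf1b (1.88, others 2.72 to 2.88) and E2f1 (−0.29, others 0.74 to 0.95). WT 4 was the low array for Tk1 (2.00, others 3.12 to 3.30) and Pcna (2.72, others 3.73 to 3.79). For Orc2 KO 3 was the high array (−1.58, others −2.27 to −2.09).

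The same held for means over lists, relative to the wild-type mean. Over the replication genes KO 5 lay at −0.60 (others −0.24 to −0.09) and WT 4 at −0.44 (others 0.12 to 0.17). Over the mitosis genes KO 3 lay at −1.03 (others −0.15 to 0.16) and WT 4 at −1.23 (others 0.38 to 0.44). Over the squamous differentiation genes KO 5 lay at −1.61 (others −0.40 to 0.07) and WT 4 at −1.65 (others 0.38 to 0.65). The erythroid genes, of which 8 of 16 listed symbols passed the filter, lay at −0.39 on KO 3 (others 0.04 to 0.20). Epb4.2 and Epb42 among those symbols name the same gene, and the 8 include Hemgn, whose probe holds the TG repeat. The pit cell genes lay at 0.76 on WT 4 (others −0.32 to −0.18). What sets these arrays apart was not tested.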

How the results depend on the processing

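The count of members lower in knockout stayed between 35 and 43 of 46 under the settings run on those 46 genes, and their median between −0.44 and −0.16. No member was called under any of these settings but array weights, which called 1 (Tk1). The 44 genes called over all became 22 with no filter on dim probes, 5 with slide as a block, 4 with the level of Y-linked genes in the fit, 548 with array weights, 159 without KO 5 and WT 4, and 11 to 161 leaving out each mouse in turn (11 without WT 1, 161 without WT 4). Nothing in the labels says that shared replicate numbers pair the mice. With the replicate block, which drops KO 5, 4 genes were called, 38 members were lower and their median was −0.16. Members without overlap between genotypes numbered 0 in the reported setting, 1 with quantile normalization (Cdc45; 1.16% of all genes lay wholly lower), 1 with the mean of a gene's probes (Ccne1; 1.15%), 0 to 18 leaving out each mouse in turn (1.37% to 6.42%) and 18 without KO 5 and WT 4 (7.06%). Signs turned for Orc6 (−0.034) and Slbp (0.0433) with slide as a block, for Cdc6 (0.0412), Cdt1 (0.0324) and Fen1 (0.0702) with Y-linked genes in the fit, and for Pcna with array weights (−0.1128) and without KO 5 and WT 4 (−0.0737). Leaving out each mouse in turn, Orc6 ran from −0.0448 to 0.1499, Slbp from −0.3848 to 0.155 and Pcna from −0.1512 to 0.2045. The cause of these shifts was not tested. Leaving out Ung was chosen after its values were seen. The number of arrays limits the precision of each difference.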
